A study of Equus caballus with 25 samples.

Results

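The change in the mare's endometrium between the middle and the end of the luteal phase was followed by comparing biopsies taken on day 12 with biopsies taken on day 8 of the oestrous cycle. The comparison used the 5 arrays titled as day 12 endometrium and the 5 titled as day 8, which is 10 of the 25 arrays of the series. The other 15 arrays hold days 0, 3 and 16 and served only for context. All biopsies came from 5 normally cycling Bavarian Warmblood mares, with no treatment named, and each mare gave 1 biopsy per day, so day 12 was compared with day 8 within each mare. Tissue was taken through the cervix, ovulation was called day 0, and the labels call day 8 mid luteal and day 12 late luteal. Biopsies of a mare were spread over different cycles, and the least interval set for 2 biopsies of 1 cycle is longer than the gap between days 8 and 12, so by that rule a mare's day 8 and day 12 samples come from separate cycles. The ages of the mares are not given in the sources used here.

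During the luteal phase the corpus luteum secretes progesterone. The glands and lining of the endometrium then secrete histotroph, a mixture of carrier proteins, enzymes and nutrients that feeds an embryo before it attaches, which happens late in the horse. When no embryo is recognised, the endometrium releases prostaglandin F2 alpha towards the end of dioestrus and the corpus luteum regresses. Well known histotroph proteins of the mare are uterocalin, a lipid carrier named P19 here, and retinol carriers, lysosomal proteins and iron-binding proteins.

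Levels are given as the log2 of the array signal minus the 75th percentile of that array. A level of 0 is thus the 75th percentile spot, and a difference of 1 is 2-fold. Levels of different genes are not compared as amounts of RNA, because probes differ in how they bind. The summed levels of marker genes given below weigh each gene by the brightness of its probe. Differences are the mean over the 5 mares of day 12 minus day 8 with the standard error (SE). They passed when the adjusted p-value of limma's moderated test, Benjamini-Hochberg over all tested probes, was under 0.05.

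The uterine label was checked against marker genes. Uterocalin stood at a mean level of 7.75 ± 0.18 (SD, n = 5) on day 8 and 7.49 ± 0.27 on day 12, against 3.66 on day 0. ESRP1, an epithelial splicing factor, lay between 2.73 and 3.04 on day 8 and between 3.07 and 3.46 on day 12, and the stromal proteoglycan gene DCN lay between 3.31 and 4.22 over both days. Whole biopsies mix epithelium, stroma, vessels and immune cells, and in them fewer cells of a type and less RNA per cell cannot be told apart.

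Day 12 arrays were brighter. The 75th percentile of signal ranged from 1328 to 1672 on day 8 and from 1509 to 2171 on day 12, and it was higher on day 12 in 5 of 5 mares, by a mean of 0.26 on the log2 scale (exact sign-flip permutation test, two-sided p = 0.0625, the smallest that 5 pairs can give). The share of spots well above background was also higher in 5 of 5 mares, with medians of 79.6% on day 8 and 82.9% on day 12. Both arrays of mares 1, 2 and 3 lay on 1 slide per mare, while those of mares 4 and 5 lay on different slides. The part of signal level in the results below was not tested apart from the day, and with it as a covariate 0 probes passed in limma (4420 at an unadjusted p under 0.05).

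Of 35220 tested probes, 5633 passed, which is 16.0%. Of these, 3017 were higher on day 12 (8.57% of the tested probes) and 2616 were lower (7.43%). At least 2-fold differences were found for 822 higher and 729 lower probes. The same direction in all 5 mares was seen for 5415 of the 5633, against 32.9% of all tested probes, those that passed included. A test within mares favours probes on which the mares agree, so the count of 5415 largely follows from the selection. For 9.67% of all tested probes the day 8 and day 12 values did not overlap. The median difference over all tested probes was 0.06.

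The directions were also looked at in a mare that the test had not used. With 1 mare left out, 1925 to 2836 probes passed, and 87.8% to 95.0% of them went the same way in the mare left out. In mares 4 and 5, whose arrays lay on different slides, the shares were 92.2% and 93.6%. They were 91.0%, 95.0% and 87.8% in mares 1, 2 and 3. Signal level was higher on day 12 in all 5 mares, least in mare 3 (log2 difference 0.08). Agreement in a mare left out therefore cannot tell the day from signal level. Where a target had several probes, 97.9% of 11093 pairings of a called probe with another probe of its target had the same sign, and in 76.7% the other probe passed too, while 91.5% of such pairings over all tested probes had the same sign.

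A gene symbol could be given to 500 tested genes, and 103 of them passed (20.6%). Of these, 62 rose and 41 fell, 99 of them in the same direction in all 5 mares, and the median difference over the 500 genes was 0.13. With each mare left out in turn, 23 of the 103 passed every time. They were the rising genes AKR1C1, ANG, BDNF, BSP2, CD14, CHGA, DEFB4B, FTL, GM2A, GNLY, GSN, IGF2, IL10, KIR3DL, LY49C, NR5A2, PGFS, PPARGC1A, RBP4 and TMEM140 and the falling genes COL11A1, CYP19A1 and PPAT. The other 80, ESR1, PGRMC1 and INHBA among them, lost the call in at least 1 of these fits. Of these 80, 20 passed in none of the fits, among them ANXA1, CCL8, CLU, GPX3, HSP90AB1, ITGA2B, LRRC4, MET, MHCX1, PRKAG3 and SOD1.

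**Figure D1:**
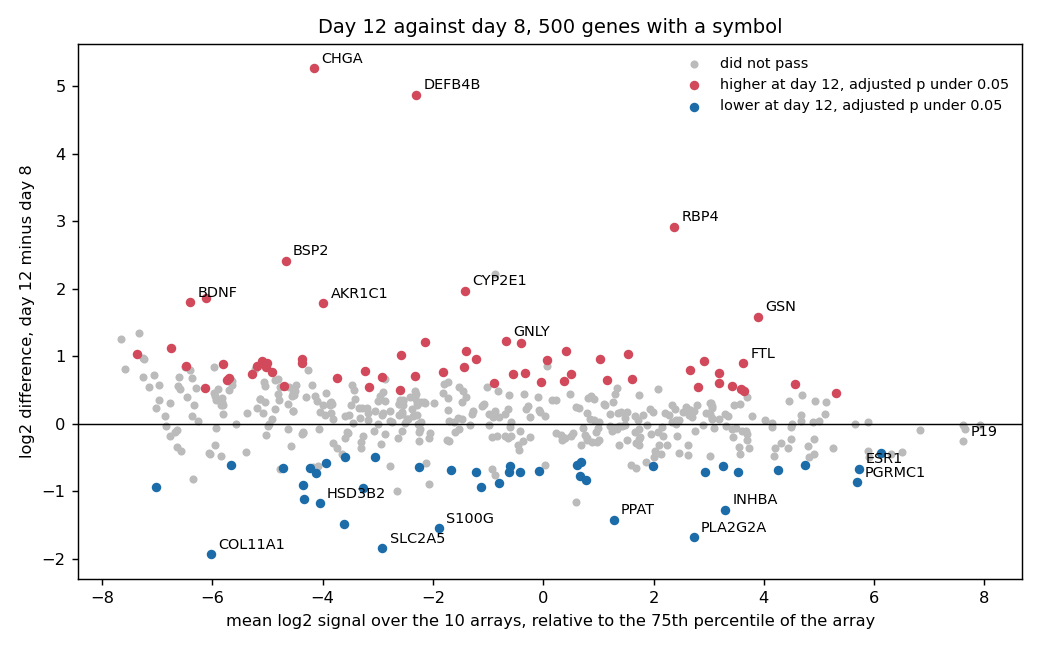
Each point is 1 of the 500 tested genes with a symbol. The horizontal axis is the mean log2 signal over the 10 arrays relative to each array's 75th percentile, and the vertical axis is the log2 difference, day 12 minus day 8. Red points (62 genes) rose and blue points (41 genes) fell at an adjusted p under 0.05. CHGA at 5.26, DEFB4B at 4.87 and RBP4 at 2.92 stand highest, and COL11A1 at −1.93 lowest among the genes that passed.

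Secreted proteins changed unevenly. The retinol carrier gene RBP4 and the lysosomal protein gene GM2A were higher on day 12, the lipid carrier gene LGB1 was lower, and uterocalin did not pass. Of 11 tested genes for uterine secretory proteins, 4 rose (RBP4, GM2A, GPX3 and CLU), 1 fell (LGB1) and 6 did not pass, with a median difference of 0.16.

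RBP4 encodes the plasma retinol-binding protein, which carries vitamin A. Its levels in mares 1 to 5 were 1.97, 0.29, 0.53, 0.78 and 1.0 on day 8 and 4.49, 3.81, 4.66, 3.91 and 2.29 on day 12. Every day 12 value lay above every day 8 value, and mare 5 had the smallest rise. The gene was 7.56-fold higher on day 12 (log2 difference 2.92 ± 0.37 SE, adjusted p = 0.00791), and its 3 other probes passed in the same direction. RARB, a retinoic acid receptor gene and the only other tested member of the retinoid list, was at 0.28 and did not pass.

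GM2A encodes the GM2 ganglioside activator, a lysosomal lipid-transfer protein. It was at −0.09, −1.10, −1.24, −1.40 and −1.12 on day 8 and at 0.87, 0.67, −0.47, −0.41 and 0.33 on day 12. The days overlapped because mare 1 was already high on day 8. The rise was 2.28-fold (log2 difference 1.19 ± 0.17 SE, adjusted p = 0.0101). IDUA, the other tested gene of the lysosome list, did not pass, at −0.01.

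GPX3, the secreted glutathione peroxidase, rose by a log2 difference of 0.64 ± 0.16 (SE, adjusted p = 0.0399), with no overlap between days. Its other probes had the same sign, with smaller differences of 0.31 to 0.35, and none of them passed. CLU, the extracellular chaperone clusterin, rose by 0.46 ± 0.13 (adjusted p = 0.0463). Neither GPX3 nor CLU passed in any fit that left out a mare. Uterocalin (P19) was at 7.53, 8.02, 7.73, 7.77 and 7.68 on day 8 and at 7.12, 7.61, 7.34, 7.55 and 7.83 on day 12. It was lower on day 12 in 4 of 5 mares, and the difference of −0.26 ± 0.14 did not pass (adjusted p = 0.209).

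LGB1, a beta-lactoglobulin gene of the lipocalin carrier family, was at −4.16, −3.97, −3.71, −3.61 and −3.44 on day 8 and at −5.78, −4.97, −5.35, −4.73 and −3.61 on day 12. It fell in all 5 mares, least in mare 5, whose day 12 value lay within the day 8 range. It was 2.16-fold higher on day 8 (log2 difference −1.11 ± 0.22 SE, adjusted p = 0.0213). On days 0 and 16 its mean levels were −8.55 and −8.27, so both luteal days stood far above them.

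CHGA showed the largest rise of any gene with a symbol. It encodes chromogranin A, an acidic protein of secretory granules in neuroendocrine cells. Its levels were −5.27, −6.48, −6.69, −6.73 and −8.75 on day 8 and 0.40, −2.76, 1.37, −1.88 and −4.74 on day 12. The days did not overlap, but the day 12 values spread widely (SD 2.45), and mare 5 was lowest on both days. The difference was 5.26 ± 0.57 (SE), or 38.4-fold (adjusted p = 0.00708), and 4 of 4 other probes passed. After another background correction, normexp with marked local backgrounds replaced, the difference was 3.14, or 8.83-fold, and still passed (adjusted p = 0.0162). The probe was well above background on 4 of 5 day 8 arrays. GAST, encoding gastrin, and CALCA, encoding calcitonin and its related peptide, were the other tested genes of the secretory granule list, at −0.35 and 0.96, and neither passed.

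Genes of epithelial defence and of monocytes included the next largest rise. Of 10 tested innate defence genes, DEFB4B and CD14 rose and none fell, with a median of −0.04. DEFB4B encodes a beta-defensin, a small antimicrobial peptide of epithelia. It was at −6.53, −3.53, −2.46, −5.66 and −5.50 on day 8 and at 1.73, 0.28, 1.34, 1.34 and −4.01 on day 12. It was 29.3-fold higher on day 12 (log2 difference 4.87 ± 0.88 SE, adjusted p = 0.0165), and its other probe passed too. After the other background correction it was 14.4-fold higher (adjusted p = 0.0115). Mare 5 rose least and kept a day 12 level below the day 8 levels of mares 2 and 3.

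CD14, the co-receptor for bacterial lipopolysaccharide on monocytes and macrophages, was at 0.14, −0.10, −0.33, −0.24 and −0.06 on day 8 and at 1.51, 0.69, 0.82, 1.08 and 0.70 on day 12. All day 12 values were higher than all day 8 values. The rise was 2.12-fold (log2 difference 1.08 ± 0.15 SE, adjusted p = 0.00875). Of the other macrophage and dendritic cell markers tested, CD68 and ITGAX were at 0.20 and 0.22 and did not pass, which made the list's count 1 of 3 with a median of 0.22. The summed level of these 3 markers, the log2 of their added signals, ranged from −0.12 to 0.36 on day 8 and from 0.84 to 1.63 on day 12. CD14 gave most of this sum, ranging alone from −0.33 to 0.14 and from 0.69 to 1.51, so the sum largely restates CD14. The part of macrophage number in the change of CD14 was not tested. The innate receptors TLR2, TLR3, TLR4 and TLR9 were at −0.20, −0.21, 0.53 and −0.42, and none passed in its brightest probe, while the other probe of TLR4 passed at 0.50 (adjusted p = 0.0477).

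**Figure D2:**
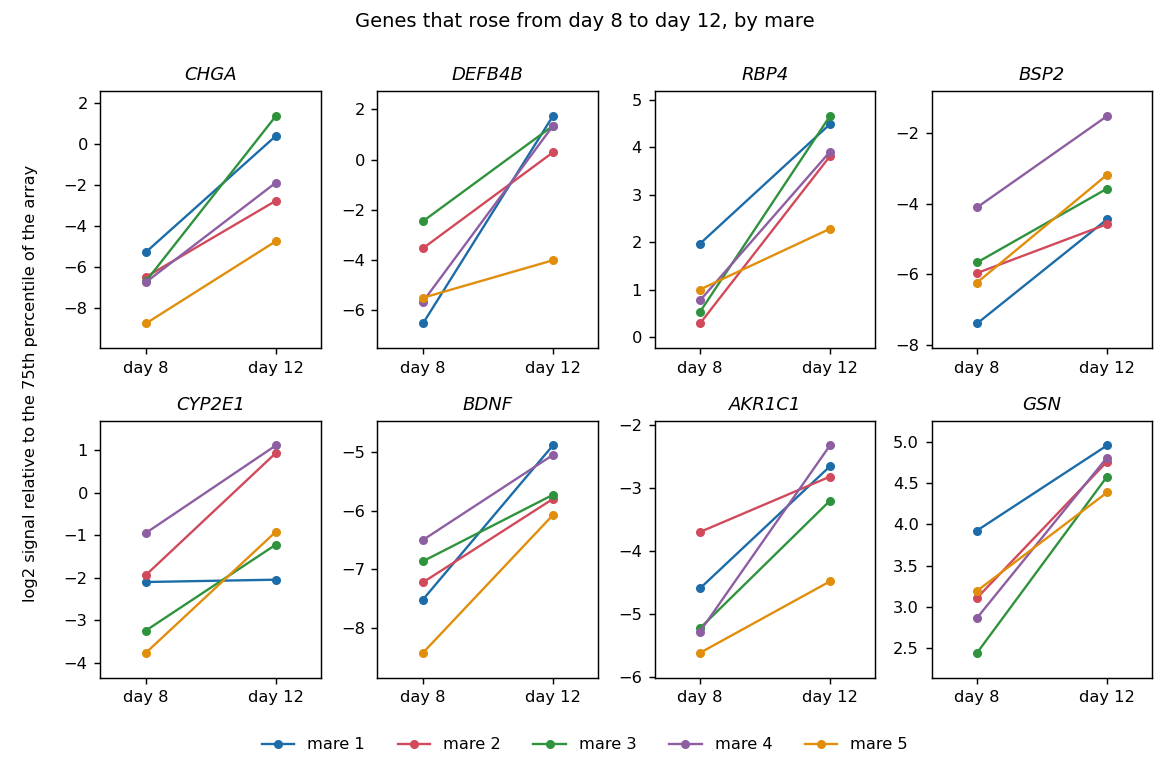
Each panel shows 1 gene that rose from day 8 to day 12, with 1 line and colour per mare. The horizontal axis is the day and the vertical axis is the log2 signal relative to the array's 75th percentile. All 5 lines rise in every panel, and mare 5 stands apart in DEFB4B, at −4.01 on day 12, and mare 1 in CYP2E1, at −2.10 and −2.05.

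Cytotoxic lymphocyte genes were higher on day 12 while the surface marker CD2 did not pass. Of 5 tested T and natural killer (NK) cell markers, 4 rose (GNLY, GZMB, CCL5 and IL7R), with a median difference of 0.93 against 0.06 over all tested probes. The summed level of the 5 markers ranged from 1.68 to 3.49 on day 8 and from 2.61 to 4.94 on day 12, so these ranges overlapped. GZMB gave most of this sum, so the overlap is largely that of GZMB, while GNLY and CCL5 did not overlap between days. The part of lymphocyte number in these changes was not tested. GNLY, GZMB and CCL5 are made by T cells and NK cells alike.

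GNLY encodes granulysin, a pore-forming protein of cytotoxic granules. It was at −1.25, −1.29, −1.27, −1.46 and −1.13 on day 8 and at −0.38, 0.46, −0.14, −0.05 and −0.16 on day 12. The day 8 values were tightly grouped and all lay below day 12. The difference was 1.23 ± 0.16 (SE), or 2.34-fold (adjusted p = 0.00843).

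GZMB, the granule protease granzyme B, was at 2.68, 2.94, 1.87, 1.38 and 3.39 on day 8 and at 2.96, 3.82, 3.09, 2.19 and 4.86 on day 12. Mares kept much of their order between days, with mare 4 lowest and mare 5 highest on both, so the days overlapped although all 5 mares rose. The difference was 0.93 ± 0.18 (SE, adjusted p = 0.0202). CCL5, a chemokine that draws T cells and monocytes, was at −1.65, −1.13, −1.20, −2.53 and −2.01 on day 8 and at −0.61, −0.43, −0.88, −1.07 and −0.73 on day 12, without overlap. It rose by 0.96 ± 0.18 (adjusted p = 0.0189), and its other probe did not pass. IL7R, the interleukin 7 receptor chain, rose by 0.92 ± 0.22 (adjusted p = 0.0342) but did not pass after the other background correction (adjusted p = 0.0724).

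CD2, an adhesion receptor of T and NK cells, was at −4.31, −3.94, −3.43, −4.31 and −4.11 on day 8 and at −3.39, −3.96, −4.29, −3.90 and −3.91 on day 12. It rose in 3 of 5 mares, and the difference of 0.13 ± 0.24 did not pass (adjusted p = 0.723). Restricted to mares 1 to 3, whose arrays shared a slide, 1 of the 5 markers passed, which was GNLY (log2 difference 1.25, adjusted p = 0.0459). In that smaller fit GZMB was at 0.80 and CCL5 at 0.69.

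The NK receptor genes KIR3DL, LY49C and LY49E passed, but not after the other background correction. KIR3DL, an inhibitory NK receptor gene, was at −6.20, −6.93, −7.31, −8.45 and −7.70 on day 8 and at −5.70, −5.98, −5.70, −7.37 and −6.20 on day 12, and rose by 1.13 ± 0.18 (SE, adjusted p = 0.0128). The probe was well above background on 2 of 5 day 8 arrays, its other probe did not pass, and after the other background correction the difference was 0.05. LY49C and LY49E, lectin-like NK receptor genes of the horse that were named after their values were seen, rose by 0.74 ± 0.12 (adjusted p = 0.0128) and 0.65 ± 0.15 (adjusted p = 0.0296). LY49C was at −5.67, −5.56, −5.24, −6.10 and −5.65 on day 8 and at −4.85, −4.87, −4.48, −5.21 and −5.10 on day 12, without overlap. Neither LY49 gene passed after the other background correction (log2 differences 0.20 and 0.06), and all 3 receptor genes turned sign under normexp on all local backgrounds. LY49F, a relative of the LY49 genes above, did not pass in its brightest probe. Its other probe passed at 1.05 (adjusted p = 0.0102) and was well above background on 1 of 5 day 8 arrays. Since LY49C and LY49E were picked by their values, their passing is no result about the family. LY49 genes resemble each other closely, and whether each probe reads 1 gene was not tested.

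**Figure D3:**
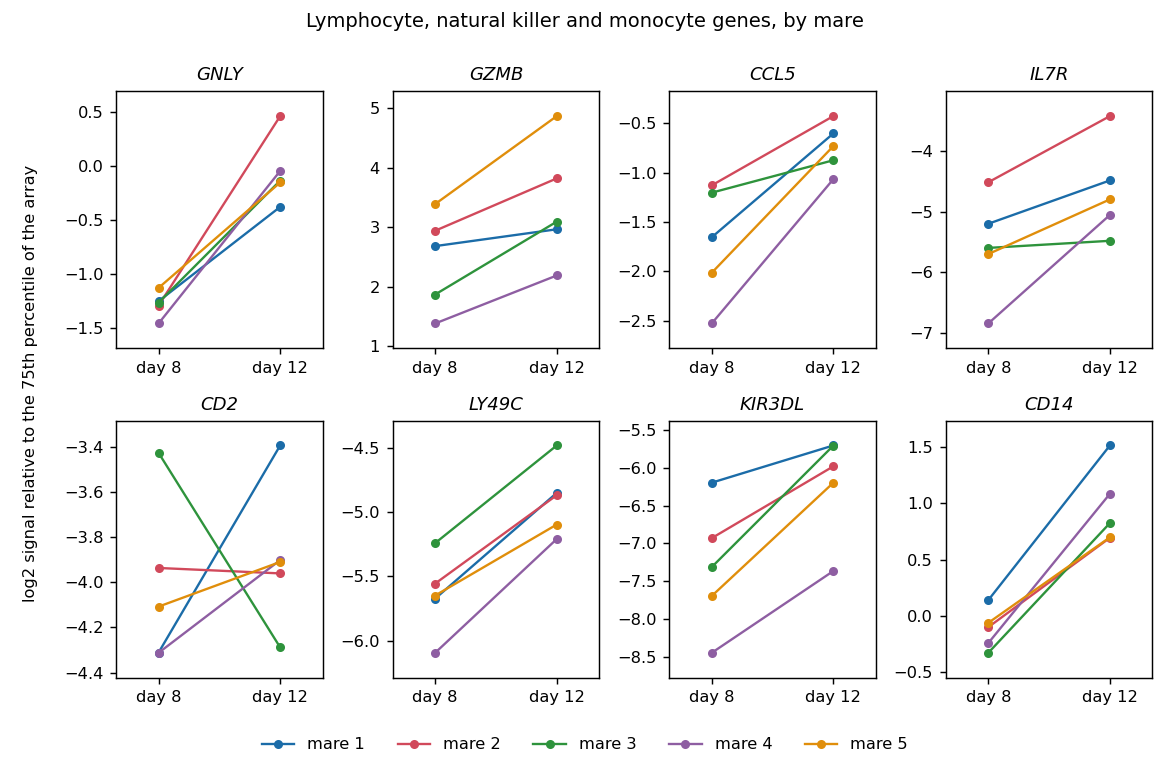
Each panel shows 1 gene of lymphocytes, natural killer cells or monocytes on days 8 and 12, with 1 line and colour per mare. The vertical axis is the log2 signal relative to the array's 75th percentile. The lines rise together for GNLY, GZMB, CCL5, IL7R, LY49C, KIR3DL and CD14 and cross for CD2, which rose in 3 of 5 mares.

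Chemokine, antigen presentation and interferon-stimulated genes showed few changes. Of 8 tested chemokines and receptors, CCL5 and CCL8 rose (median 0.21). CCL8, a monocyte chemokine, rose by 0.75 ± 0.21 (SE, adjusted p = 0.0464). Of 10 tested interferon-stimulated genes, MX1 rose and EIF2AK2 fell (median 0.07). MX1, an antiviral GTPase, differed by 0.80 ± 0.19 (adjusted p = 0.0337), and EIF2AK2, the RNA-activated kinase PKR, by −0.69 ± 0.15 (adjusted p = 0.0261). Of the other EIF2AK2 probes, 1 passed at −0.61 (adjusted p = 0.0439) and 1 did not, at −0.04 (adjusted p = 0.902). OAS3, another antiviral enzyme gene, was at 0.67 and did not pass (adjusted p = 0.0511).

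Of 4 tested antigen presentation genes 1 rose (median 0.37), the class I gene EQMHCC1, by 0.73 ± 0.15 (SE, adjusted p = 0.0220). Mare 3 stood apart on both days, at −5.90 on day 8 and −5.61 on day 12, while the other mares lay between −0.13 and 0.75 on day 8 and between 0.65 and 1.43 on day 12. Further major histocompatibility genes, named after their values were seen, were MHCB3 and MHCX1, which rose by 0.55 ± 0.13 (adjusted p = 0.0323) and 0.55 ± 0.12 (adjusted p = 0.0269). These genes differ between animals and resemble each other, and whether allele differences under the probes shape the levels was not tested. B2M, the shared light chain of class I molecules, was at 0.34 and did not pass.

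IL10, encoding an anti-inflammatory cytokine and named after its values were seen, ranged from −5.80 to −3.99 on day 8 and from −4.46 to −3.41 on day 12. It rose by 0.96 ± 0.17 (SE, adjusted p = 0.0159). All 4 of its other probes had the same sign and none of them passed.

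The oestrogen receptor gene and an activin subunit gene were lower on day 12. Of 10 tested hormone response genes, IGF2 rose and ESR1, PGRMC1 and INHBA fell, with a median difference of −0.37. ESR1 encodes oestrogen receptor alpha, which progesterone is known to hold down in the luteal endometrium. It was at 6.12, 5.82, 5.89, 6.18 and 6.24 on day 8 and at 5.22, 5.48, 5.07, 5.40 and 5.78 on day 12. The highest day 12 value lay just below the lowest day 8 value. The day 8 level was 1.58-fold higher (log2 difference −0.66 ± 0.14 SE, adjusted p = 0.0231). All 5 other probes had the same sign and 1 of them passed. Mean levels were 7.12 on day 0 and 6.47 on day 16, so day 12 had the lowest mean of the 5 days.

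PGRMC1 encodes a membrane-associated progesterone-binding protein. It was at 5.81, 6.04, 6.55, 5.97 and 6.28 on day 8 and at 4.55, 5.55, 4.87, 5.73 and 5.62 on day 12. The days did not overlap, with mares 1 and 3 falling most. The difference was −0.87 ± 0.22 (SE, adjusted p = 0.0379), its other probe did not pass, and under quantile normalization the call was lost (adjusted p = 0.0534). The nuclear progesterone receptor and the oxytocin receptor were not analysed here.

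INHBA encodes the beta A subunit of activin and inhibin, growth factors of the transforming growth factor beta family. It was at 3.71, 3.90, 4.32, 3.97 and 3.77 on day 8 and at 2.39, 1.87, 3.61, 3.94 and 1.49 on day 12. Mares 1, 2 and 5 fell strongly and mare 4 hardly moved. The difference was −1.27 ± 0.32 (SE, adjusted p = 0.0366), and 3 of 3 other probes passed. Of the 5 tested genes of the transforming growth factor beta list, INHBA was the only one to pass (median 0.33). Follistatin (FST), which binds activin, was at −0.48 and INHA, the alpha subunit of inhibin, at 0.36, and neither passed.

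Some genes for enzymes that make or inactivate steroids were lower, and a xenobiotic cytochrome gene was higher. Of 16 tested genes of steroid and sterol metabolism, 3 fell (HSD11B2, HSD3B2 and CYP19A1) and 1 rose (CYP2E1), with a median of 0.12. HSD11B2 encodes the dehydrogenase that inactivates cortisol. It was at −3.81, −2.86, −2.06, −3.60 and −2.02 on day 8 and at −4.36, −3.83, −5.18, −5.01 and −3.40 on day 12. All mares fell and the days overlapped, with mare 3 falling most. The day 8 level was 2.80-fold higher (log2 difference −1.48 ± 0.33 SE, adjusted p = 0.0280).

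HSD3B2, a 3-beta-hydroxysteroid dehydrogenase that makes progesterone and other steroids, was at −3.96, −3.76, −2.93, −3.83 and −2.86 on day 8 and at −4.46, −4.16, −5.29, −5.09 and −4.22 on day 12. Every day 12 value was lower than every day 8 value. The difference was −1.18 ± 0.28 (SE, adjusted p = 0.0317). CYP19A1, the aromatase that turns androgens into oestrogens, was at −0.13, −0.14, −0.91, 0.48 and −1.10 on day 8 and at −1.34, −1.32, −1.34, −0.41 and −1.78 on day 12. All mares fell, and mares 4 and 5 kept the highest and lowest values on both days. The difference was −0.88 ± 0.15 (SE, adjusted p = 0.0156).

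CYP2E1, a cytochrome that oxidises small molecules such as ethanol, was at −2.10, −1.94, −3.25, −0.95 and −3.77 on day 8 and at −2.05, 0.93, −1.23, 1.11 and −0.92 on day 12. Mare 1 hardly moved while the other mares rose, and the days overlapped. The difference was 1.97 ± 0.38 (SE), or 3.92-fold (adjusted p = 0.0198), and 4 of 4 other probes passed. Its mean level was −5.63 on day 0 and −5.80 on day 3. STAR, CYP11A1 and CYP17A1, which act early in steroid synthesis, were at 0.16, 0.52 and 0.15, and none of them passed.

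**Figure D4:**
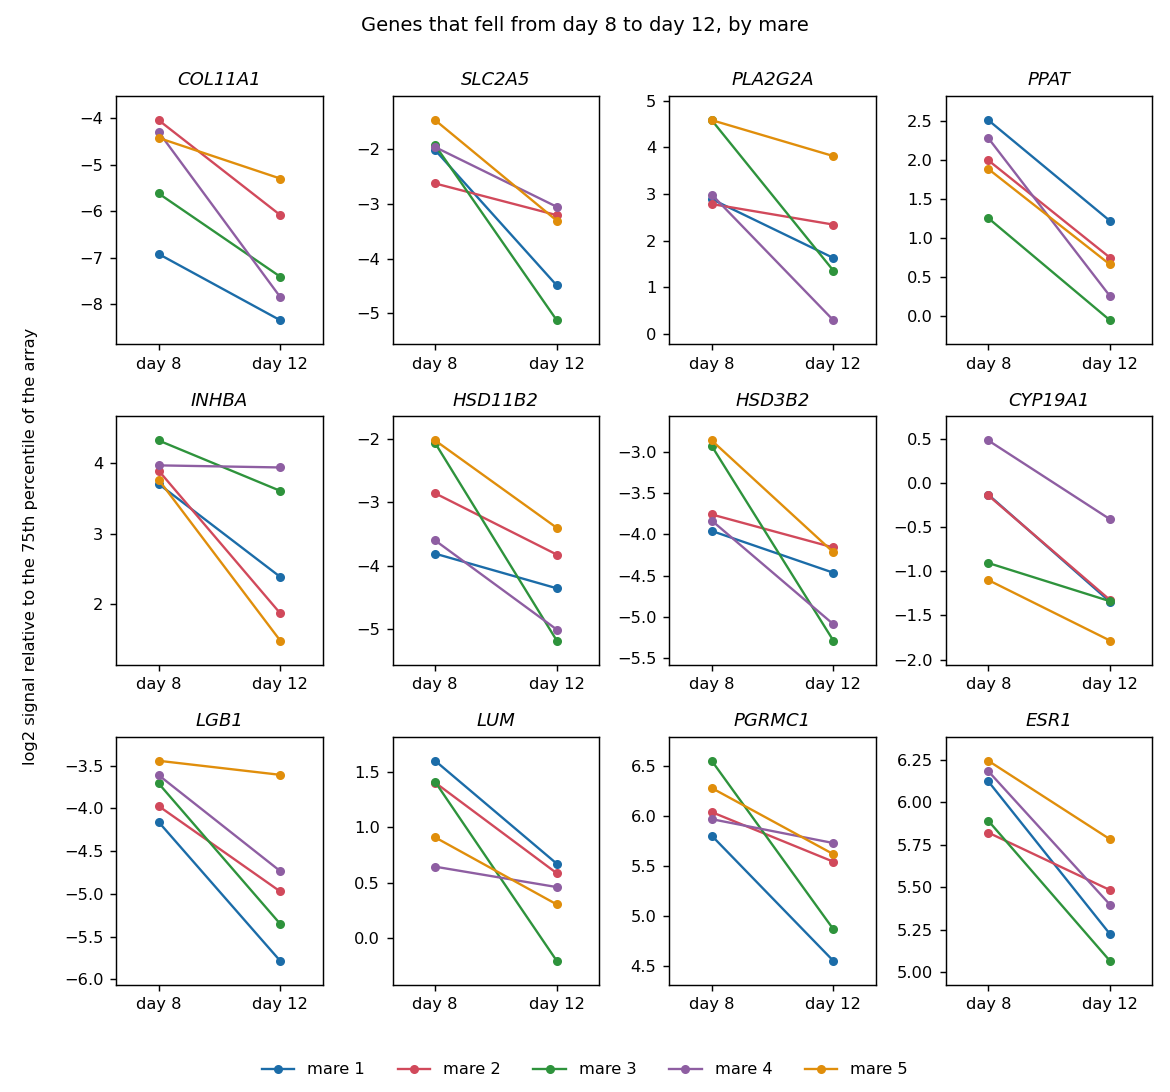
Each panel shows 1 gene that fell from day 8 to day 12, with 1 line and colour per mare. The horizontal axis is the day and the vertical axis is the log2 signal relative to the array's 75th percentile. All lines slope down; mare 4 is nearly flat for INHBA, from 3.97 to 3.94, and mare 5 for LGB1, from −3.44 to −3.61.

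The listed prostaglandin genes did not move as a group. Of 10 tested prostaglandin and oxytocin genes, ANXA1 rose and PLA2G2A fell, with a median of 0.01. This count takes each gene's brightest probe, and it leaves out PGFS and AKR1C1, described below, which rose but were not on the list. PLA2G2A encodes a secreted phospholipase that frees fatty acids from membranes. It was at 2.89, 2.79, 4.58, 2.99 and 4.58 on day 8 and at 1.63, 2.35, 1.36, 0.30 and 3.81 on day 12. All mares fell, and mare 5 kept a day 12 level above the day 8 levels of 3 mares. The day 8 level was 3.20-fold higher (log2 difference −1.68 ± 0.41 SE, adjusted p = 0.0338), and 4 of 4 other probes passed. Mean levels on days 0, 3 and 16 were 4.78, 5.25 and 5.10, so day 12 was the lowest of the 5 days.

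ANXA1, annexin A1, an inhibitor of inflammation that acts on phospholipase pathways, rose by 0.48 ± 0.12 (SE, adjusted p = 0.0397), and 1 of its 3 other probes passed. PLA2G4A, the cytosolic phospholipase that supplies arachidonic acid, was at 0.62 ± 0.25 and did not pass (adjusted p = 0.120). PTGS2, the inducible cyclooxygenase, was at 1.03, 1.11, 0.51, 0.24 and 0.45 on day 8 and at 1.25, 1.12, 1.3, 1.39 and 0.36 on day 12. Its difference of 0.42 ± 0.20 did not pass (adjusted p = 0.179), and mare 5 went the other way.

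PTGES, the prostaglandin E synthase, was at 2.03, 2.26, 1.5, 1.56 and 1.76 on day 8 and at 2.07, 2.68, 2.27, 2.32 and 2.36 on day 12. The difference was 0.52 ± 0.15 in its brightest probe, which missed the threshold (adjusted p = 0.0511), while its 4 other probes passed in the same direction. The prostaglandin F receptor gene PTGFR had a mean level of −3.86 ± 0.46 (SD, n = 5) on day 8 and −4.50 ± 0.75 on day 12, and its difference of −0.64 ± 0.20 did not pass (adjusted p = 0.0660). HPGD, which breaks prostaglandins down, was at −0.63 ± 0.29 and did not pass (adjusted p = 0.161).

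PGFS and AKR1C1, named because they were among the largest rises, encode aldo-keto reductases. PGFS, a prostaglandin F synthase of this enzyme family, was at 1.01, 1.73, 0.45, 1.17 and 0.73 on day 8 and at 1.93, 2.51, 1.70, 2.63 and 1.51 on day 12. The day 12 values of mares 3 and 5 overlapped the day 8 values, and all mares rose. The rise was 2.06-fold (log2 difference 1.04 ± 0.15 SE, adjusted p = 0.00976).

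AKR1C1, a reductase of steroids and prostaglandins, was at −4.59, −3.70, −5.22, −5.27 and −5.61 on day 8 and at −2.66, −2.82, −3.20, −2.32 and −4.48 on day 12. The difference was 1.78 ± 0.29 (SE), or 3.44-fold (adjusted p = 0.0123), and another of its probes gave 2.09. After the other background correction the difference was 1.05 (adjusted p = 0.0160). Its dimmest probe was not well above background on any day 8 array. PGFS and AKR1C1 have close relatives in sequence, and whether their probes read 1 gene each was not tested.

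A fructose and a lactate transporter gene were lower. Of 15 tested genes for sugar and lactate handling, SLC2A5 and SLC16A1 fell and PPARGC1A rose, with a median of 0.03. SLC2A5, the fructose transporter GLUT5, was at −2.01, −2.62, −1.92, −1.96 and −1.47 on day 8 and at −4.49, −3.20, −5.13, −3.05 and −3.30 on day 12. The days did not overlap, and mares 1 and 3 fell most. It was 3.57-fold higher on day 8 (log2 difference −1.84 ± 0.35 SE, adjusted p = 0.0192), and its other probe passed.

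SLC16A1, the monocarboxylate carrier that moves lactate, was at 3.32, 3.28, 3.21, 3.1 and 3.50 on day 8 and at 2.22, 2.99, 2.22, 2.52 and 2.92 on day 12, without overlap. The difference was −0.71 ± 0.15 (SE, adjusted p = 0.0264), and its other probe did not pass. PPARGC1A, a coactivator that drives mitochondrial genes, was at −2.20, −2.76, −2.55, −2.68 and −3.53 on day 8 and at −1.21, −1.51, −0.99, −1.3 and −2.63 on day 12. It rose in all mares, with mare 5 lowest on both days, by 1.22 ± 0.14 (SE), or 2.32-fold (adjusted p = 0.00745), and its other probe passed. PPARGC1A was also the only one of 3 tested lipid droplet and lipoprotein genes to pass (median 0.10).

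Of 6 tested nutrient sensing genes, PRKAG3 rose and RRAGA fell (median −0.20). RRAGA encodes a Rag GTPase that signals amino acid supply to the kinase mTOR. It was at 4.67, 4.61, 4.88, 4.34 and 4.49 on day 8 and at 3.80, 4.28, 3.75, 3.86 and 3.86 on day 12, without overlap. The difference was −0.69 ± 0.15 (SE, adjusted p = 0.0264). PRKAG3 and PRKAB2 encode subunits of the AMP-activated kinase. PRKAG3 rose by 0.68 ± 0.17 (adjusted p = 0.0349) and PRKAB2 fell, differing by −0.95 ± 0.18 (adjusted p = 0.0195), with no overlap between days for PRKAB2. The catalytic subunit genes PRKAA1 and PRKAA2 were at −0.15 and −0.25 and did not pass.

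PPAT encodes the amidotransferase that starts purine synthesis. It was at 2.51, 2.0, 1.26, 2.28 and 1.89 on day 8 and at 1.22, 0.75, −0.05, 0.26 and 0.67 on day 12. Every day 12 value lay below every day 8 value, and mare 4 fell most. The day 8 level was 2.67-fold higher (log2 difference −1.42 ± 0.16 SE, adjusted p = 0.00708), and 2 of 2 other probes passed.

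An iron storage gene rose and a calcium-binding gene fell. FTL, the light chain of the iron store ferritin, was at 3.15, 3.32, 3.36, 2.87 and 3.20 on day 8 and at 4.20, 4.06, 4.04, 3.80 and 4.29 on day 12. The days were well apart in all mares. The rise was 1.87-fold (log2 difference 0.90 ± 0.13 SE, adjusted p = 0.00938). FTL was the only one of 5 tested iron genes to pass (median −0.14), and the transferrin receptor gene TFRC was at −0.48.

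S100G encodes calbindin D9k, an epithelial calcium-binding protein. It was at −1.06, −1.14, −1.08, −0.96 and −1.36 on day 8 and at −3.56, −2.68, −3.39, −2.51 and −1.19 on day 12. It fell in 4 of 5 mares, and mare 5 did not fall. The difference was −1.54 ± 0.36 (SE, adjusted p = 0.0301), and 4 of 4 other probes passed. S100G was the only one of 5 tested transport genes to pass (median −0.24), and CFTR, the chloride channel, was at −0.21 and did not pass.

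Some collagen and proteoglycan genes were lower. Of 11 tested extracellular matrix genes, COL11A1, COL5A2 and LUM fell and none rose, with a median of −0.31. COL11A1 and COL5A2 encode fibrillar collagen chains. COL11A1 was at −6.92, −4.04, −5.62, −4.29 and −4.42 on day 8 and at −8.34, −6.08, −7.40, −7.84 and −5.30 on day 12. All mares fell from widely different levels, so the days overlapped. It was 3.82-fold higher on day 8 (log2 difference −1.93 ± 0.34 SE, adjusted p = 0.0156), and its other probe did not pass. After the other background correction the difference was −0.77, or 1.71-fold, and passed (adjusted p = 0.0122). COL5A2 was at −4.43, −4.48, −4.24, −4.14 and −4.69 on day 8 and at −5.17, −4.94, −5.04, −4.70 and −5.43 on day 12, without overlap, and differed by −0.66 ± 0.12 (adjusted p = 0.0177).

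LUM, the collagen-binding proteoglycan lumican, fell, with a difference of −0.83 ± 0.20 (SE, adjusted p = 0.0342). Its 5 other probes had the same sign, with smaller differences of −0.42 to −0.16, and none passed. DCN, the related proteoglycan decorin, was at 0.39 ± 0.14 and did not pass (adjusted p = 0.0819). LUM and DCN are also the tested stromal fibroblast markers, and their summed level ranged from 3.56 to 4.01 on day 8 and from 3.66 to 4.33 on day 12, so it did not separate the days. DCN gave most of this sum. HAS2, a hyaluronan synthase gene, was at −0.66 and did not pass.

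Among 8 tested proteases and inhibitors of the matrix, MMP9, encoding a gelatinase, and ADAMTS4, encoding an aggrecanase, rose (median −0.11). MMP9 differed by 0.85 ± 0.17 (SE, adjusted p = 0.0204) and ADAMTS4 by 0.57 ± 0.15 (adjusted p = 0.0410). Both are dim, and after the other background correction neither passed (log2 differences 0.22 and 0.15). The protease inhibitor genes TIMP1 and TIMP3 were at 0.16 and 0.05.

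Actin, nuclear lamina and adhesion genes changed in part. Of 7 tested cytoskeleton genes, GSN and LMNA rose (median −0.004). GSN encodes gelsolin, which cuts and caps actin filaments and has a secreted plasma form. It was at 3.93, 3.11, 2.44, 2.87 and 3.19 on day 8 and at 4.95, 4.76, 4.58, 4.81 and 4.39 on day 12. The day 12 values were closely grouped and all above day 8. The rise was 3.01-fold (log2 difference 1.59 ± 0.19 SE, adjusted p = 0.00748), and its other probe passed. Mean levels on days 0, 3 and 16 were 3.00, 3.12 and 3.63, so day 12 was the highest of the 5 days.

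LMNA, encoding lamins of the nuclear envelope, rose by 0.66 ± 0.15 (SE, adjusted p = 0.0302), from between 1.14 and 1.34 to between 1.39 and 2.15. Beta-actin (ACTB) was at −0.05. Of 9 tested adhesion and junction genes, ITGA5 and PECAM1 rose and ITGA2B and GJB1 fell (median 0.24). GJB1, the gap junction protein connexin 32, was at −0.21, −0.49, −1.69, −0.52 and −0.36 on day 8 and at −1.39, −1.41, −1.90, −2.09 and −1.18 on day 12. All mares fell, and mare 3 was already low on day 8. The difference was −0.94 ± 0.20 (SE, adjusted p = 0.0233). ITGA5, a fibronectin receptor chain, rose by 0.77 ± 0.18 (adjusted p = 0.0326) but did not pass after the other background correction. ITGA2B, a fibrinogen receptor chain known from platelets, fell, with a difference of −0.65 ± 0.15 (adjusted p = 0.0320).

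PECAM1, an adhesion molecule of endothelium that leukocytes and platelets also carry, was at 0.25, 0.29, 0.18, −0.23 and 0.19 on day 8 and at 0.99, 0.71, 1.10, 1.08 and 0.50 on day 12. The days did not overlap. It rose by 0.74 ± 0.17 (SE, adjusted p = 0.0302), with 2 of 2 other probes passing. SELE, the other tested endothelial marker, was at −0.03 and did not pass, so the list gave 1 of 2 with a median of 0.35. The endothelin ligand EDN2 rose and the receptor EDNRB fell, both named after their values were seen. EDN2 differed by 0.78 ± 0.19 (SE, adjusted p = 0.0361, with 5 of 5 other probes passing) and EDNRB by −0.78 ± 0.16 (adjusted p = 0.0212, with its other probe passing). Under quantile normalization EDN2 missed the threshold (adjusted p = 0.0520).

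Several growth factor genes were higher. Of 6 tested growth factors and receptors, BDNF, IGF2 and MET rose and none fell, with a median of 0.64. BDNF encodes a neurotrophin. It was at −7.51, −7.22, −6.86, −6.50 and −8.42 on day 8 and at −4.88, −5.80, −5.73, −5.05 and −6.07 on day 12, without overlap. The difference was 1.80 ± 0.24 (SE), or 3.48-fold (adjusted p = 0.00843), and 4 of 4 other probes passed. The probe was well above background on 2 of 5 day 8 arrays, and after the other background correction the difference was 0.24 and did not pass (adjusted p = 0.144).

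IGF2, insulin-like growth factor 2, was at −2.83, −2.41, −3.34, −3.20 and −3.69 on day 8 and at −1.37, −1.73, −2.50, −2.22 and −2.55 on day 12. All mares rose, mare 1 most, and the days overlapped. The rise was 2.03-fold (log2 difference 1.02 ± 0.15 SE, adjusted p = 0.0101), and its other probe passed. MET, the hepatocyte growth factor receptor, rose by 0.61 ± 0.15 (adjusted p = 0.0348), with no overlap and 2 of 2 other probes passing. VEGFA, the main vascular growth factor, was at 0.29 and did not pass.

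Of 7 tested stress and chaperone genes, GPX3 rose and HSP90AB1 and SOD1 fell (median −0.18). HSP90AB1, a cytosolic chaperone, differed by −0.42 ± 0.12 (SE, adjusted p = 0.0463) and SOD1, the copper-zinc superoxide dismutase, by −0.61 ± 0.17 (adjusted p = 0.0463). Under quantile normalization both lost the call (adjusted p = 0.171 and 0.0560). UBE2B, a ubiquitin-conjugating enzyme, was at −2.61, −2.40, −2.84, −3.06 and −2.52 on day 8 and at −2.05, −1.85, −1.83, −2.13 and −2.04 on day 12. It rose without overlap by 0.70 ± 0.14 (adjusted p = 0.0199) and was the only one of 3 tested ubiquitin genes to pass (median 0.54). No member of the WNT list (5 tested, median −0.13) or of the apoptosis list (2 tested, median 0.04) passed.

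The remaining cell markers did not pass in their brightest probes. The single tested marker was at 0.24 for epithelium (ESRP1), 0.39 for ciliated cells (DYDC1), 0.31 for smooth muscle (TAGLN) and 0.07 for red blood cells (HBA2), and for glandular epithelium it was uterocalin. The mast cell and eosinophil markers TPSB2 and FCER1A were at 0.54 and 0.49 without passing in their brightest probes, a median of 0.52, while the other probe of FCER1A passed at 0.67 (adjusted p = 0.0393). Genes on the B cell, neutrophil and cell cycle lists were not analysed here.

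Several genes with large changes fell outside these groups. BSP2, of the binder of sperm family known from seminal plasma, was at −7.40, −5.97, −5.66, −4.10 and −6.24 on day 8 and at −4.44, −4.58, −3.57, −1.51 and −3.18 on day 12. Mare 4 was highest on both days and all mares rose. The difference was 2.41 ± 0.25 (SE), or 5.33-fold (adjusted p = 0.00708). After the other background correction it was 1.15, or 2.22-fold, and passed (adjusted p = 0.0159). Its relative BSP1, named after its values were seen, rose by 1.04 ± 0.26 (adjusted p = 0.0372) but differed by −0.03 after the other background correction, and it was well above background on 2 of 5 day 8 arrays.

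MAOB, a monoamine oxidase, was at −1.09, −2.19, −2.35, −2.77 and −1.33 on day 8 and at −0.20, −1.46, −0.47, −1.14 and −1.05 on day 12, and it rose by 1.08 ± 0.24 (SE, adjusted p = 0.0271), with its other probe passing. ANAPC7, a subunit of the anaphase-promoting complex, fell, with a difference of −0.90 ± 0.24 (adjusted p = 0.0430). LRRC4, a leucine-rich repeat adhesion gene, fell, with a difference of −0.93 ± 0.25 (adjusted p = 0.0432), and was well above background on 1 of 5 day 12 arrays.

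Most probes that passed carry no symbol. Of those known by a transcript identifier, ENSECAT00000001475 rose by 5.03 ± 0.89 (SE, adjusted p = 0.0159), in 2 of 2 probes. ENSECAT00000002198 fell, with a difference of −4.08 ± 0.60 (adjusted p = 0.0103) in 5 of 5 probes, and ENSECAT00000023903, with −3.90 ± 0.68 (adjusted p = 0.0154) in its single probe. The last of these had day 8 values from −0.57 to 2.0 and day 12 values from −4.54 to −1.12, without overlap.

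Set against all 5 sampled days, the 62 rising genes did not share 1 course. Their highest mean was on day 12 for 32, on day 16 for 18, on day 0 for 10 and on day 3 for 2. CHGA and RBP4 were highest on day 16, at means of 2.28 and 4.10, whereas GSN, DEFB4B and CYP2E1 were highest on day 12. Of the 41 falling genes, 21 had their highest mean on day 8 and 18 their lowest on day 12. PPAT and SLC2A5 were highest on day 8, and PLA2G2A and ESR1 were lowest on day 12. The choice of genes by the difference between days 8 and 12 bears on these counts, which are a description only.

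The number of calls moved strongly with the fit. Within mares 1 to 3, with slide as a block, 886 probes and 16 of the 103 genes passed, among them CHGA, RBP4, DEFB4B, GSN, GNLY, CD14, COL11A1 and PPAT, and without the mare as a block 2442 probes passed, 1265 higher and 1177 lower. The balance of directions depended on the scaling: 45.4% of calls were higher on day 12 under quantile normalization and 42.5% after the other background correction, against 53.6% here.

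**Figure D5:**
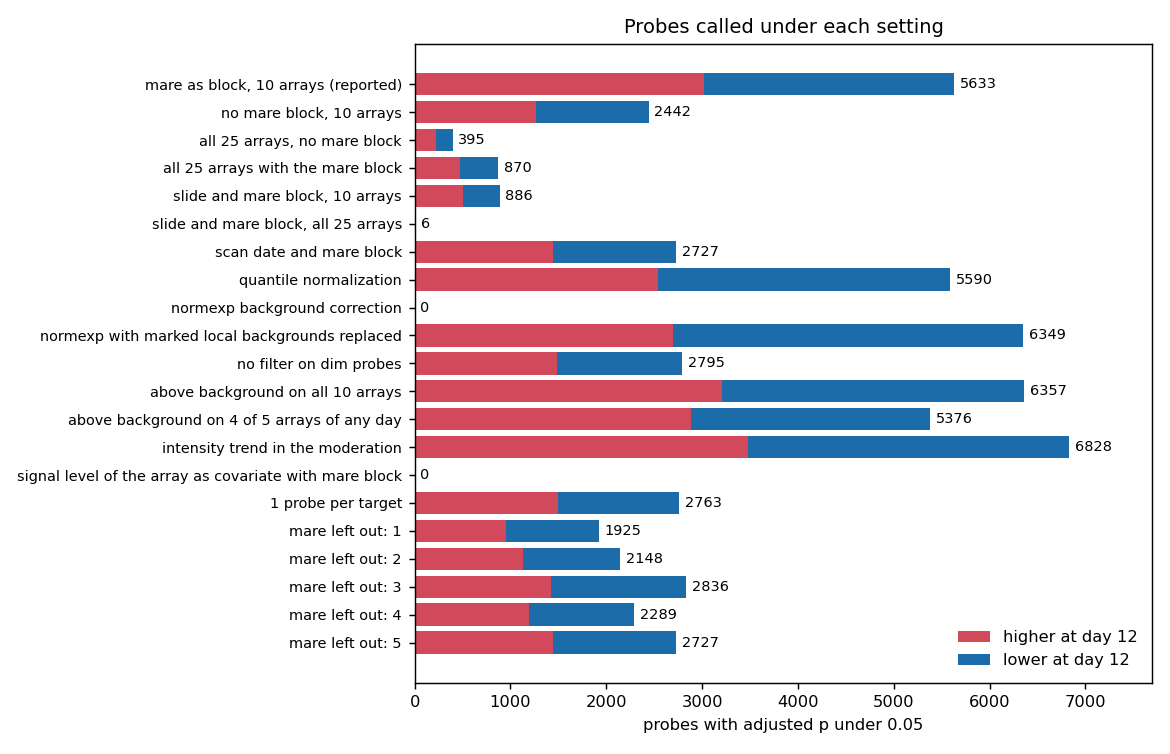
Bars give the number of probes with an adjusted p under 0.05 under each setting, split into probes higher (red) and lower (blue) on day 12. The reported fit gave 5633, fits without 1 mare gave 1925 to 2836, and a normexp correction using all local backgrounds or a covariate for array signal gave 0.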

How the data were processed

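Agilent one-colour arrays were read from Feature Extraction 10.7.3.1 output, per the submitters' processing notes. The values used are the scanner's processed signal intensity per spot, already background-corrected by that software, per the file headers. The deposited value table held the same intensity in all 25 arrays. Control spots were removed, outlier spots set to missing (122 tested probes lacked an array; none represents a gene described above) and spots of 1 probe averaged. The 43603 probes were put on a log2 scale and each array's 75th percentile subtracted. No spot was saturated. Probes well above background on at least 4 of 5 arrays of day 8 or day 12 were tested.

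Day 12 was compared with day 8 with limma 3.58.1 (R 4.3.3), the mare as a fixed block and the 10 arrays of these days, two-sided, and the procedure was tested on simulated data. The labels give arrays of 1 replicate number the same mare, and deviations of a mare's day 8 and day 12 arrays from their group means correlated at 0.17 to 0.55 for all 5 mares (median −0.11 between mares). Each mare gave 1 biopsy per day, so p-values rest on how the day 12 minus day 8 difference varied between these mares. In the moderated test the variation of each probe was also drawn towards the spread over all tested probes. The variation between mares can also hold differences between cycles and between biopsies of a mare. The number of arrays limits precision.

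Symbols came from a RefSeq gene table (assembly TB-T2T) by accession: 1243 probes of 584 genes matched, and 32565 probes named by Ensembl transcripts did not. A gene is represented by its brightest tested probe. Named were the 15 largest rises and 15 largest falls that passed in all 5 mares, a fixed set of genes, and up to 4 members of each list by p. Genes, lists and tests were chosen with earlier results of these data known, so no list is independent evidence. "The other background correction" is normexp (offset 50) with local backgrounds that the scanner software marked as outliers replaced by the array's median. Alternatives covered the block, arrays, slide, scan date, scaling, background, filter, moderation, signal level, probe choice, threshold and each mare left out.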

Additional observations from a re-analysis of the deposited data

Results flagged for a closer look

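Among the 124 sets of 5 values tested for a single distant mare, 12 were flagged, and chance flags about 1 in 20. EQMHCC1 was flagged for mare 3 on both days, at −5.90 on day 8 and −5.61 on day 12, while the other mares lay between −0.13 and 1.43. Mare 5 stood apart on day 12 for DEFB4B, at −4.01 against 0.28 to 1.73 in the others, for LMNA, at 1.39 against 2.0 to 2.15, and for PTGS2, at 0.36 against 1.12 to 1.39. On day 8 the same mare was high for ANXA1, at 3.92 against 3.23 to 3.30. Mare 4 was low on day 8 for LMNA, at 1.14 against 1.3 to 1.34, and for PECAM1, at −0.23 against 0.18 to 0.29, and on day 12 for PTGFR, at −5.82 against −4.35 to −4.02. Mare 3 was low on day 8 for GJB1, at −1.69 against −0.52 to −0.21. Mare 1 was high on day 8 for GM2A, at −0.090 against −1.40 to −1.10, and mare 2 was high on day 12 for RRAGA, at 4.28 against 3.75 to 3.86.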

How the results depend on the processing

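Against 5633 called probes, 2442 passed with no replicate block (mare), 395 with all 25 arrays and no block, 870 with all 25 arrays and the block, 886 with slide and block, 6 with slide, block and all 25 arrays, 2727 with scan date and block, 2795 with no filter on dim probes and 2763 with 1 probe per target. At an adjusted p under 0.1, 10438 passed, and 1551 passed with an added 2-fold minimum. Leaving out 1 mare in turn gave 1925 to 2836. Only mare 5 had its day 8 and day 12 arrays scanned on different dates. The scan date fit thus amounts to leaving out mare 5, with 2727 calls in both. Quantile normalization, replaced backgrounds, both other filters and an intensity trend gave 5376 to 6828. Normexp on all local backgrounds gave 0 calls (limma; 1553 at an unadjusted p under 0.05), with a median over all probes of −0.33; local background reached 772899 on the day 8 array of mare 2. The array's signal level as covariate gave 0 (4420 unadjusted); signal level and day move together in all 5 mares.

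Normexp on all local backgrounds turned 23 of the 103 called genes, among them ADAMTS4 (−0.54), BDNF (−0.63), HSP90AB1 (0.057), IL7R (−0.36), ITGA5 (−0.52), KIR3DL (−0.79), MMP9 (−0.59), PRKAG3 (−0.16), ANG (−0.25), IL10 (−0.32), LY49C (−0.55), LY49E (−0.75), NR5A2 (−0.50), EDN2 (−0.013), BSP1 (−0.89) and CRISPLD1 (−0.45). The signal covariate turned 4: INHBA (0.094), CRISPLD1 (−0.60), SKI and TNFRSF14. The cause was not tested. Of the 103, 39 still passed without the block, 90 under quantile normalization and 86 with backgrounds replaced, and 20 passed in no fit that left out a mare. The 75th percentile differed by 0.23 to 0.31 and the share above background by 2.89 to 4.23 points when 1 mare was left out. Genes near background on day 8 (CHGA, BDNF, KIR3DL, BSP1, CRISPLD1) have the least certain fold changes.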

Other observations

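Some genes outside the lists and the naming rule also passed, and are named here after their values were seen. TMEM140, a membrane protein gene, was at 0.71, 0.50, 0.59, 0.60 and 0.39 on day 8 and at 1.16, 1.44, 2.05, 1.52 and 1.39 on day 12. The days did not overlap, and it rose by 0.96 ± 0.16 (SE, adjusted p = 0.0140), with 2 of 2 other probes passing. ANG, the secreted ribonuclease angiogenin, rose by 0.91 ± 0.14 (adjusted p = 0.0123), with 3 of 3 other probes passing. NR5A2, an orphan nuclear receptor gene, rose by 0.90 ± 0.16 (adjusted p = 0.0157), with its other probe passing, but not after the other background correction (adjusted p = 0.0801). PIM1, a serine-threonine kinase gene, was at −1.74, −1.78, −2.0, −2.06 and −1.70 on day 8 and at −0.62, −0.93, −0.88, −0.97 and −1.66 on day 12. It rose by 0.85 ± 0.19 (adjusted p = 0.0266) without overlap, and mare 5 hardly moved. CRISPLD1, a cysteine-rich secretory protein gene, rose by 1.86 ± 0.51 (adjusted p = 0.0462), in 4 of 5 mares, but was at 0.39 after the other background correction (adjusted p = 0.245), and at −0.60 with the array's signal level as a covariate.

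FOS, an immediate-early transcription factor gene, had the largest difference among genes with a symbol that did not pass. It was at −1.25, −1.99, −1.49, −3.15 and −2.08 on day 8 and at −0.21, −0.50, 2.09, 1.72 and −1.95 on day 12. All 5 mares were higher on day 12, mares 3 and 4 by the most and mare 5 by the least. The difference was 2.22 ± 0.63 (SE), with an adjusted p of 0.0506.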
